A study of Mus musculus with 6 samples.

Results

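Myoglobin (Mb), the hypoxia factors Arnt and Cited2, the haem-degrading enzyme haem oxygenase 1 (Hmox1) and the inducible nitric oxide synthase (Nos2) are 5 genes that store oxygen, respond to its shortage, or use haem. They were chosen by gene symbol in the platform annotation, and each had 1 probe among the 223 on the array, which covered 203 named genes. Expression was measured in soleus, a postural hindlimb muscle, of C57Bl/6 mice titled wt and reloaded for 1 day. There was 1 group of 6 samples, with 1 array each, replicates 1 to 6. The labels used here give no age, sex or number of animals, and each analysis took 3 micrograms of total RNA from cut frozen muscle. No unloaded or untreated muscle was analysed here, so the values give levels in reloaded soleus and their spread between samples. Nothing in the labels states that the samples came from separate animals, so this spread, and any p-value resting on it, may be technical.

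Myoglobin is a haem protein that binds oxygen in the cytoplasm of oxidative muscle fibres and is abundant in soleus. Arnt, also called HIF-1 beta, is the constitutive partner with which the oxygen-regulated HIF alpha proteins bind DNA. Cited2 is induced by HIF and limits it by competing for the coactivators p300 and CBP. Hmox1 opens the haem ring and releases iron, carbon monoxide and biliverdin, and is induced by haem and oxidative stress, in macrophages among other cells. Nos2 makes nitric oxide in activated immune cells, and muscle can also express it.

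The proximal promoters of Mb, Arnt and Cited2 are shown because they carry, or lack, the short sequences that the HIF dimer of Arnt is known to bind, and because these genes were compared with each other below. Sequences are from RefSeq for the mouse build GRCm38.p6, where 3 of the 5 genes were matched. Each line holds the 250 bases before a transcript start, read 5′ to 3′ along the gene's strand. Capitals mark matches, on either strand, to the hypoxia response cores ACGTG and GCGTG, to the E-box CAGCTG and to the CCAC box CCCACCCC. The windows are chr15:77022728-77022977 on the minus strand for Mb (the most downstream of 3 listed starts), chr3:95434140-95434389 on the plus strand for Arnt, and chr10:17722978-17723227 on the plus strand for Cited2.
Mb: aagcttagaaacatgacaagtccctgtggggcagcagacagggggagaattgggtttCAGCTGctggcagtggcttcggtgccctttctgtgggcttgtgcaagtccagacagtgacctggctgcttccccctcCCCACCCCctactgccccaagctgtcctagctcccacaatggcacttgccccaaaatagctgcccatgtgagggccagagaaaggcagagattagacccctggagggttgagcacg
Arnt: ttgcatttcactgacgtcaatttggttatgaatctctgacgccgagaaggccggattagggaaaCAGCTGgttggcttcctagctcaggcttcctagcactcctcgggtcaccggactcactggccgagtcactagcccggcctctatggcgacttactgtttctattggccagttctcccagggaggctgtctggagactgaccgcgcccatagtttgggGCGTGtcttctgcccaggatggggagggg
Cited2: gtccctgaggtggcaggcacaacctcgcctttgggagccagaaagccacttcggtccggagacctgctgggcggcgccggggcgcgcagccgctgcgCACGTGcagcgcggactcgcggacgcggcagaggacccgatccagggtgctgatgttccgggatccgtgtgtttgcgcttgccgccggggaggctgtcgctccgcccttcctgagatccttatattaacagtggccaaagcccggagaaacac

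The printed Mb window held 0 matches to either hypoxia core, 1 E-box at position -193 and 1 CCAC box at position -116. Positions count back from -1 at the base before the start. For the listed Mb start next upstream, the window held 0 hypoxia cores, the E-box at -133 and the CCAC box at -56. For the most upstream Mb start it held none of these matches. Arnt held 1 GCGTG match at -29 and 1 E-box at -186. Cited2 held the palindrome CACGTG, which contains ACGTG once on each strand in overlap, starting at -153 and -152. Over all 32851 promoter windows of the same length, 16.6% held ACGTG, 28.2% GCGTG, 13.0% the E-box and 8.52% the CCAC box. The MEF2 consensus, the site of a muscle transcription factor family, matched 2.92% of all windows and none of the 3 printed above. These matches describe letters, not bound sites.

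The deposited intensities were linear, and 153 of 1338 were below 0. Their sum over all probes was 165.3 on replicate 1 and 13.8 on replicate 6, and the other 4 arrays lay from 35.2 to 41.3. Replicates 1 and 6 therefore stood apart, and 137 of the 162 named genes above 0 on all arrays were highest on replicate 1 in deposited units. Intensities were divided by each array's median over the 175 probes above 0 on all 6 arrays, and this relative intensity is used below; its log2 is called the centred log2 intensity. The size of an array's most negative value served as its noise bound, and values at or under it were set to it before log2. Precision is limited by the number of arrays, here 6.

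The samples carried the markers of muscle. Of 9 listed fibre markers 7 were measured, slow and fast myosins among them, and all 7 exceeded the noise bound on every array. Their summed relative intensity was 394 on replicate 1, 264, 352 and 289 on replicates 2 to 4, 171 on replicate 5 and 147 on replicate 6. The sum of 6 endothelial markers ran the other way between the ends, from 7.41 on replicate 1 to 15.0 on replicate 5. Of 13 listed macrophage and leukocyte markers 2 were measured, the cytokines Il1b and Il6, and both were at or under the bound on all 6 arrays. Of 5 red blood cell markers 0 were measured. In whole muscle, fewer cells of a type and less RNA per cell cannot be told apart.

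Mb, the oxygen store, gave the steadiest level of the members. Its deposited intensities were 4.66, 0.943, 1.12, 1.25, 0.802 and 0.322 on replicates 1 to 6. These were 286 to 894 times the noise bound, so Mb was far above it on every array. Relative intensities were 72.0, 62.9, 73.0 and 76.7 on replicates 1 to 4, 47.4 on replicate 5 and 32.5 on replicate 6. Replicates 1 to 4 thus lay close together, with replicates 5 and 6 below them. The centred log2 intensity was 5.86 ± 0.48 (SD, n = 6), a 2.36-fold range, and its SD ranked 53 from the smallest among 175 probes. The median SD of these probes was 0.57.

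The low values of Mb on replicates 5 and 6 moved with the muscle fibre markers. Mb came to 18.3% of the summed relative intensity of the 7 markers on replicate 1, 23.8% on replicate 2, 20.7% on replicate 3, 26.5% on replicate 4, 27.7% on replicate 5 and 22.2% on replicate 6. On this measure replicate 1 was lowest and replicate 5 highest. With arrays scaled to the mean log2 intensity of the same markers, the range of Mb was 1.49-fold, with quantile normalization 1.31-fold, and with each array scaled to its summed intensity without 28S 1.51-fold. The array of its highest and lowest value changed between these scalings, so no order of the samples in Mb is given. Quantile normalization sets the value of Mb by its rank on the array alone. That value was equal on replicates 3 and 5, and on replicates 4 and 6.

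**Figure D1:**
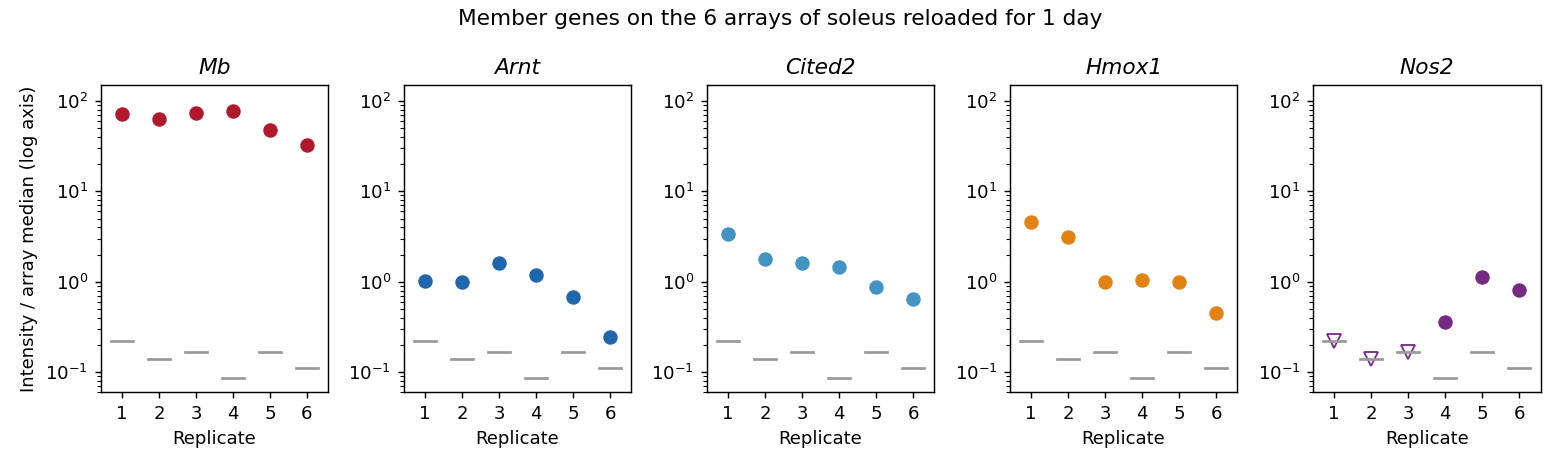
Relative intensity (deposited intensity over the array median, log axis) of the 5 genes on the 6 arrays, 1 point per array. Grey bars give each array's noise bound, and open triangles are arrays at or under it. Mb, Arnt, Cited2 and Hmox1 were lowest on replicate 6, and Nos2 exceeded the bound on replicates 4 to 6 only.

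Of the hypoxia factors, Arnt was dim and was low on 1 sample. Its deposited intensities were 0.0662, 0.0150, 0.0245, 0.0192, 0.0115 and 0.0024 on replicates 1 to 6, between 2.18 and 13.7 times the noise bound. Replicate 6 was the nearest to the bound. Relative intensities were 1.02, 1.00, 1.59, 1.18, 0.680 and 0.242, so 4 samples lay at or above the array median and replicates 5 and 6 below it. The centred log2 intensity was -0.28 ± 0.95 (SD, n = 6), a 6.56-fold range that was 2.34-fold without replicate 6. Replicate 6 held the lowest Arnt value under every scaling tried. It was also low for the fibre markers, and the range of Arnt was 2.96-fold after scaling to them.

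Cited2, the HIF-induced inhibitor, was highest on replicate 1. Its deposited intensities were 0.216, 0.0267, 0.0246, 0.0240, 0.0149 and 0.0064 on replicates 1 to 6, all at least 5.32 times the noise bound. Relative intensities were 3.34 on replicate 1, 1.78, 1.60 and 1.47 on replicates 2 to 4, 0.882 on replicate 5 and 0.646 on replicate 6. The 3 middle samples were close, with replicate 1 above and replicates 5 and 6 below them. The centred log2 intensity was 0.50 ± 0.83 (SD, n = 6), a 5.17-fold range that was 2.75-fold without replicate 1 and 2.09-fold after scaling to the fibre markers. Replicate 1 was highest under every scaling tried.

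Hmox1 varied most among the members above 0 on all arrays. Its deposited intensities were 0.295, 0.0465, 0.0154, 0.0171, 0.0169 and 0.0045 on replicates 1 to 6, all at least 4.09 times the noise bound. Relative intensities were 4.57 and 3.10 on replicates 1 and 2, 1.00, 1.05 and 1.00 on replicates 3 to 5, and 0.455 on replicate 6. On this relative scale the samples formed 3 levels, with replicates 3 to 5 nearly equal. Hmox1 equalled the array median on replicates 3 and 5, so both of their relative values were 1.00. These levels depended on the scaling. After scaling to the fibre markers, log2 values less their mean were -0.88, -0.58 and 0.14 on replicates 3 to 5. Replicate 6 was then at -0.87. The centred log2 intensity was 0.46 ± 1.22 (SD, n = 6), a 10.0-fold range that was 4.57-fold without replicate 6, and its SD ranked 161 from the smallest among 175 probes. Replicate 1 was highest under every scaling tried, and the range was 4.10-fold after scaling to the fibre markers. As a share of the summed fibre markers, Hmox1 was 1.16% on replicate 1 and 1.17% on replicate 2, against 0.284% to 0.584% on the others. Of the 13 listed macrophage and leukocyte markers only the cytokines Il1b and Il6 were measured. Both were at or under the noise bound on all 6 arrays, so they could not show a difference between samples. Whether macrophages had a part in the Hmox1 values was not tested.

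Nos2 was measured above the noise bound on 3 of 6 arrays. Its deposited intensities were -0.0012, 0.0011 and 0.0015 on replicates 1 to 3, at or under the bound, and 0.0058, 0.0190 and 0.0080 on replicates 4 to 6, between 4.14 and 7.27 times it. Values at or under the bound have no order and do not show that the transcript was absent. On the brightest array, replicate 1, the bound was 0.0144, which the deposited value of replicate 5 exceeded and those of replicates 4 and 6 did not. That comparison is in deposited units, without scaling between arrays. On the centred log2 scale the bound of replicate 1 was -2.17, and replicates 4 to 6 were above it at -1.49, 0.17 and -0.31. Relative intensities on replicates 4 to 6 were 0.356, 1.12 and 0.808, and the highest sample was at least 8.03-fold above the lowest. Replicate 5 held the highest value under every scaling except the summed intensity, where replicate 6 did. Among named genes, 21 of 203 were highest on replicate 5 in deposited units.

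On the relative scale Nos2 was thus highest where the summed fibre markers were lowest, on replicates 5 and 6. Nos2 also exceeded the bound on replicate 4, where that sum was 289, against 264 on replicate 2. Of the 6 measured endothelial markers, 2 were highest on replicate 5 (Pecam1 and Flt4), 2 on replicate 4 (Cdh5 and Tek) and 2 on replicate 6 (Kdr and Flt1). Whether endothelial cells had a part in the Nos2 values was not tested. The endothelial nitric oxide synthase Nos3 exceeded the bound on 2 of 6 arrays, and it was the only measured gene of 17 listed for nitric oxide, haem and antioxidant enzymes.

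**Figure D2:**
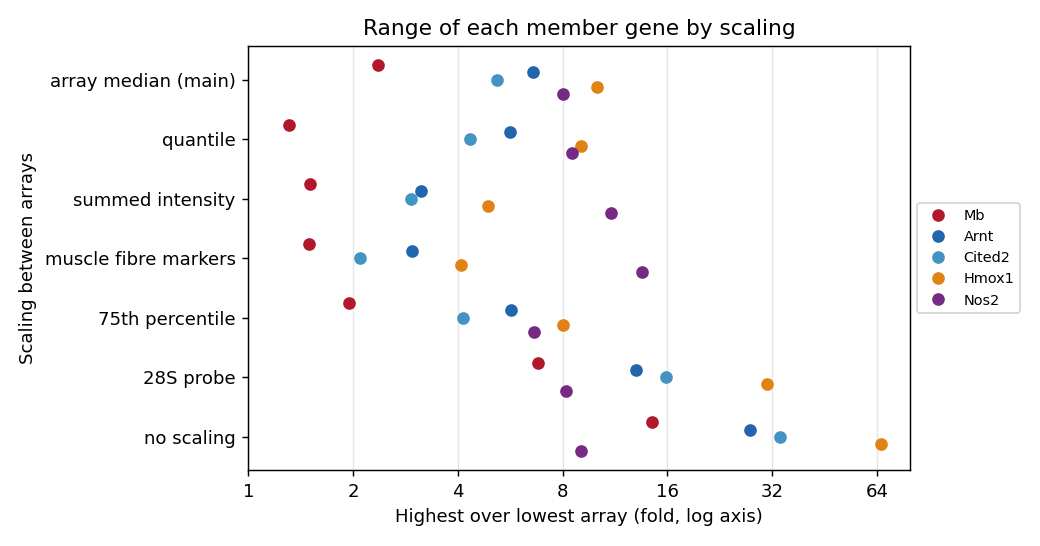
Fold between the highest and the lowest of 6 arrays (log axis) for each gene, 1 point per gene and scaling; values of Nos2 are lower bounds. Among the 4 genes above 0 on all arrays Mb had the smallest range and Hmox1 the largest under each scaling shown, from 1.31-fold for Mb with quantile normalization to 65.6-fold for Hmox1 with no scaling.

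The 4 members above 0 on all arrays form 6 pairs. Each pair was compared by Pearson's r over the 6 arrays, and its two-sided p came from exact permutation of the arrays (720 orders), for each of the 15225 pairs of the 175 probes. All 6 member pairs had r above 0, as did 53.2% of all pairs. Of the 6 pairs, 3 had an unadjusted p under 0.05, against 17.3% of all pairs (10.3% with r above 0). By Spearman's rho 2 of 6 did, against 11.2%. With 1 replicate left out, 1 pair passed without replicate 4 or replicate 6 (13.4% and 7.80% of all pairs), and 2 passed without any other (10.5% to 13.2% of all pairs). After Benjamini-Hochberg adjustment over all pairs 0 member pairs passed, and 0 of the 15225, of which 2633 had an unadjusted p under 0.05 with Pearson's r, and 1707 with rank correlation. The 6 pairs share genes and are not independent.

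Mb and Arnt had a Pearson's r of 0.96 (exact permutation p = 0.00694, 0.181 after adjustment) and a Spearman's rho of 0.94 (exact permutation p = 0.0167, 0.245 after adjustment). With replicates 5 and 6 left out, which lay farthest from the median of Mb, r was 0.48. With replicates 3 and 6 left out, the farthest for Arnt, it was 0.98, and without replicates 1 and 6 it was 0.90. The spread along replicates 5 and 6 thus carried much of the relation, while no removal of 2 samples tried here turned its sign. Without replicate 6 alone r was 0.85 (exact permutation p = 0.0583). It also depended on the scaling, with r = -0.21 after quantile normalization (exact permutation p = 0.717), 0.54 after scaling to summed intensity and 0.49 after scaling to the fibre markers. The quantile value of Mb follows its rank alone and was tied between samples, which limits what that r can show.

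Cited2 and Hmox1 had a Pearson's r of 0.90 (exact permutation p = 0.0222, 0.227 after adjustment) and a Spearman's rho of 0.90 (exact permutation p = 0.0278, 0.298 after adjustment). This pair kept an r of 0.83 to 0.97 and an unadjusted exact permutation p between 0.00278 and 0.0278 under every scaling, filter and floor tried. With replicates 1 and 6 left out, which lay farthest from the median of Cited2, r was 0.55, and with replicates 1 and 2 left out, the farthest for Hmox1, it was 0.80. Without replicate 1 alone r was 0.80 (exact permutation p = 0.0833), without replicate 4 it was 0.92 (exact permutation p = 0.050), and without replicate 6 it was 0.82 (exact permutation p = 0.0333).

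Mb and Cited2 had a Pearson's r of 0.83 (exact permutation p = 0.0458, 0.275 after adjustment) and a Spearman's rho of 0.49 (exact permutation p = 0.356, 0.644 after adjustment), with r = -0.092 without replicates 5 and 6 (farthest for Mb) and 0.80 without replicates 1 and 6 (farthest for Cited2). This pair lost its call under most alternatives and without any 1 of the 6 replicates. Arnt and Cited2 had a Pearson's r of 0.73 (exact permutation p = 0.121, 0.382 after adjustment) and a Spearman's rho of 0.54 (exact permutation p = 0.297, 0.605 after adjustment), with r = 0.62 without replicates 3 and 6 (farthest for Arnt) and 0.76 without replicates 1 and 6. Mb and Hmox1 had a Pearson's r of 0.62 (exact permutation p = 0.164, 0.434 after adjustment) and a Spearman's rho of 0.46 (exact permutation p = 0.372, 0.674 after adjustment), with r = -0.57 without replicates 5 and 6 and 0.86 without replicates 1 and 2 (farthest for Hmox1). Arnt and Hmox1 had a Pearson's r of 0.54 (exact permutation p = 0.264, 0.534 after adjustment) and a Spearman's rho of 0.38 (exact permutation p = 0.472, 0.751 after adjustment), with r = 0.33 without replicates 3 and 6 and 0.91 without replicates 1 and 2. A p above the threshold over so few arrays is no evidence that a pair was unrelated.

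**Figure D3:**
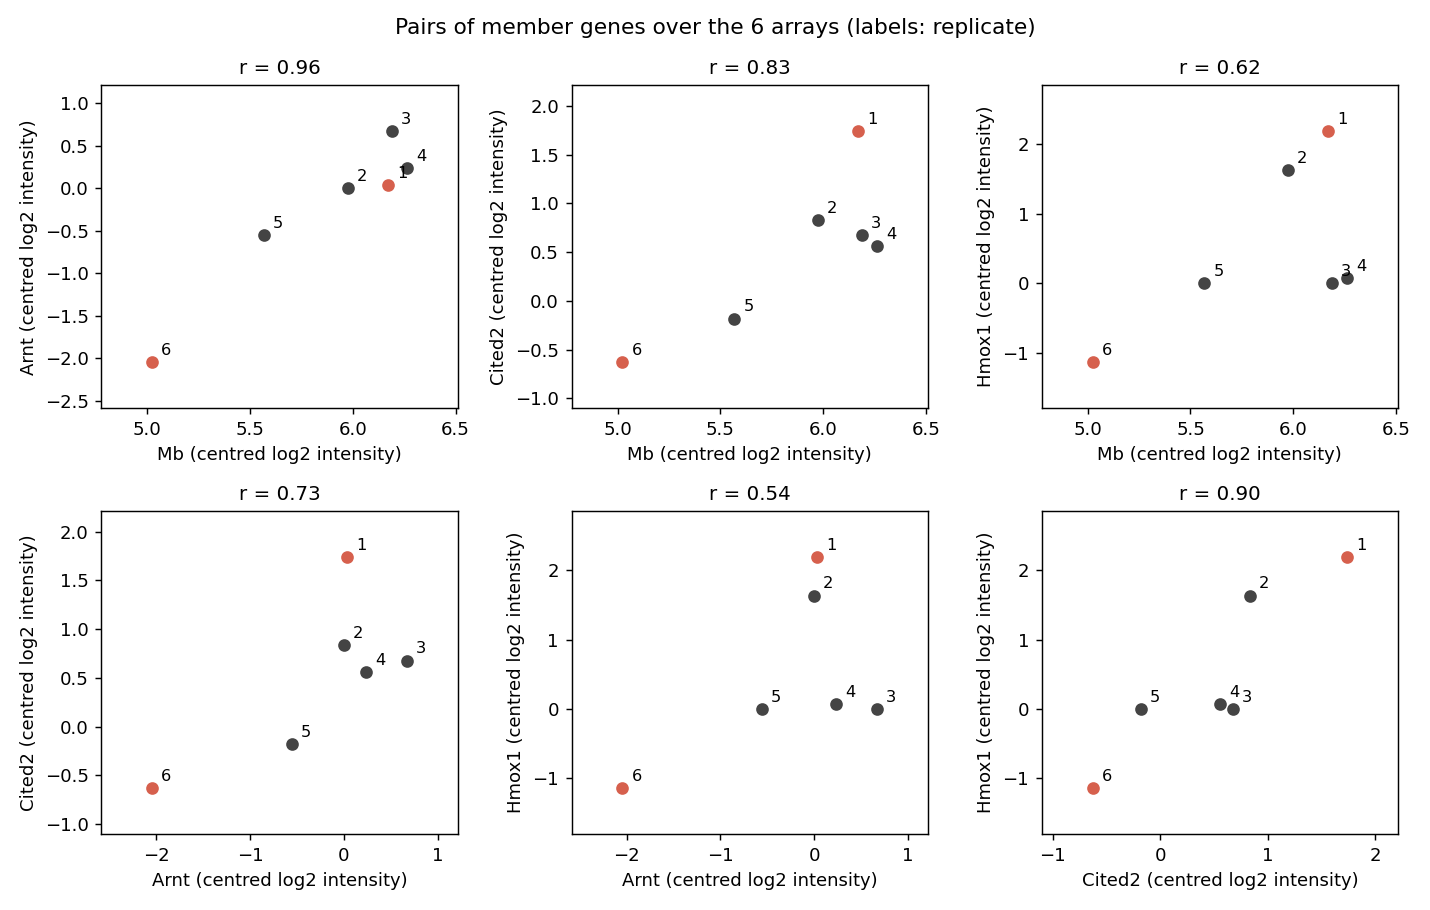
Centred log2 intensity of each pair of genes, 1 point per array, labelled by replicate, with replicates 1 and 6 in red. Mb and Arnt (r = 0.96) are spread along replicates 5 and 6, and Cited2 and Hmox1 (r = 0.90) between replicates 1 and 6.

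Among other genes of the hypoxia pathway, 21 of 39 listed were measured and 19 were above 0 on all arrays. Hif1a, the oxygen-regulated partner of Arnt, had relative intensities of 0.394, 0.660, 0.584, 0.454, 0.367 and 0.162 on replicates 1 to 6, and was lowest on replicate 6 like Arnt. Hif1a was dim, between 1.45 and 5.29 times the noise bound, and nearest to it on replicate 6. Its r with Arnt was 0.92 (exact permutation p = 0.0264, 0.235 after adjustment) and rho was 0.66 (exact permutation p = 0.175), with r = 0.43 without the 2 samples farthest from the median. Vhl, which marks HIF alpha for degradation, was above 0 on 0 of 6 arrays. Edn1, the vasoconstrictor endothelin 1, exceeded the bound on 1 of 6.

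The shares of the hypoxia list that passed with Arnt were near those of all probes. Arnt passed at an unadjusted p under 0.05 with 3 of 19 genes at r above 0 and 0 below 0. Besides Hif1a these were the glycolytic genes Aldoa (r = 0.81, rho = 1.00, exact permutation p of r = 0.0458) and Gapdh (r = 0.78, rho = 0.77, exact permutation p of r = 0.0417). Over all 174 other probes the shares were 17.2% and 6.90%. The median r with Arnt was 0.53 over the list and 0.48 over all probes. Vegfa, the angiogenic HIF target, had r = -0.023 with Arnt (exact permutation p = 0.958) and rho = 0.20 (exact permutation p = 0.714), with r = -0.23 without replicates 3 and 6.

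Cited2 passed with 2 genes of the list above 0 and 2 below, against 23.6% and 11.5% of all probes. The cell cycle inhibitor Cdkn1a had r = 0.92 with Cited2 (exact permutation p = 0.0222) and rho = 0.94 (exact permutation p = 0.0167), with r = 0.50 without replicates 1 and 6. Cdkn1a exceeded the noise bound on 5 of 6 arrays, and its lowest value, on replicate 6, was at the bound. Hk1, a hexokinase, had r = 0.86 and rho = 0.89 (exact permutation p = 0.0250 and 0.0333). The VEGF receptor Flt1 had r = -0.98 with Cited2 (exact permutation p = 0.00556) and rho = -0.83 (exact permutation p = 0.0583), with r = -0.91 without replicates 1 and 6. Its relative intensity was 0.377 on replicate 1 and 2.11 on replicate 6. In deposited units Flt1 was highest on replicate 1, at 0.0244 or 1.69 times the noise bound. It was 0.0209 on replicate 6, with a 1.78-fold range over the 6 arrays. The opposite course of Flt1 and Cited2 between these 2 arrays thus came with the division by the array median. Other scalings of this pair are not given here. The growth factor Igf2 had r = -0.90 and rho = -0.77 (exact permutation p = 0.0222 and 0.103).

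Hmox1 passed with 1 gene of the list above 0 (Cdkn1a, r = 0.91, rho = 0.81) and 1 below (Flt1, r = -0.87, rho = -0.93), against 13.2% and 6.90% of all probes. The limits given above for Cdkn1a on replicate 6 and for the scaling of Flt1 hold here too. Mb passed with 1 above 0 (Hk1, r = 0.86, rho = 0.49) and 0 below, against 21.3% and 6.32%. Without replicates 5 and 6 the r of Mb with Hk1 turned to -0.46. Hk1 was dim, at 1.29 times the noise bound on replicate 5. For Hmox1 the median r over the list was 0.12, against 0.18 over all probes, and for Mb 0.53 against 0.46. After adjustment over all pairs 0 of these passed.

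The genes of oxidative fibres include enzymes that use the oxygen myoglobin holds. Of 18 listed 7 were measured, all above 0 on all arrays. Mb passed at an unadjusted p under 0.05 with 3 of the 7 above 0 and 1 below, against the 21.3% and 6.32% of all probes. The median r with Mb was 0.77, against 0.46 over all probes. Cox4i1, a cytochrome oxidase subunit, had r = 0.92 with Mb (exact permutation p = 0.0125, 0.201 after adjustment) and rho = 0.83 (exact permutation p = 0.0583), with r = 0.57 without replicates 5 and 6. The subunit Cox5b had r = 0.91 and rho = 0.77 (exact permutation p = 0.0139 and 0.103). The malate dehydrogenase Mdh2 had r = 0.92 and rho = 0.60 (exact permutation p = 0.0250 and 0.242). Without replicates 5 and 6 r was 0.62 for Cox5b and turned to -0.19 for Mdh2. The 1 below was Tfam, a mitochondrial transcription factor, which was under the noise bound on 3 of 6 arrays and set to it there. Nothing is read from its correlation. Fabp3, a fatty acid carrier, and Ucp3, a mitochondrial carrier, had r = 0.27 with Mb.

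Arnt passed with 2 of the 7 oxidative genes (Cox4i1, r = 0.93, and Mdh2, r = 0.94), Cited2 with 3 (Cox4i1, Cox5b and Mdh2, r from 0.83 to 0.88) and Hmox1 with 0, all above 0. Over all probes 17.2%, 23.6% and 13.2% passed above 0 with these members. The median r over the 7 genes was 0.68 for Arnt, 0.72 for Cited2 and 0.60 for Hmox1, against 0.48, 0.41 and 0.18 over all probes. After adjustment 0 of them passed. Cox4i1, Cox5b and Mdh2 were lowest on replicate 6, where the sum of the fibre markers and 79 of the 162 named genes also had their lowest value. The part of that array in these counts was not tested.

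**Figure D4:**
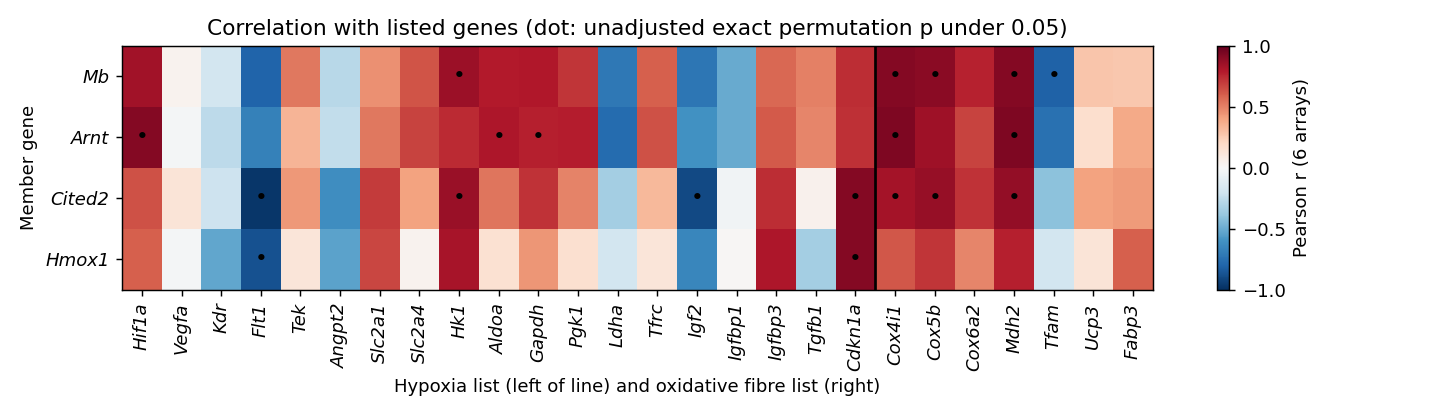
Pearson r over 6 arrays (colour, from -1 to 1) between 4 genes (rows) and the hypoxia and oxidative fibre genes above 0 on all arrays (columns); dots mark an unadjusted exact permutation p under 0.05. Of the 26 listed genes, 17 had r above 0 with all 4 members and 6 had r below 0 with all 4. Among the 175 probes above 0 on all arrays, 90 had r above 0 with all 4 members. With a single member, 58.0% to 63.8% of the 174 other probes had r above 0. No count over all probes is given for r below 0 with all 4.

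The genes whose pattern over the 6 arrays was most like each member are named from 119 other genes above the noise bound on all arrays. They were picked for a high r, which is given as a description. For Mb these were Car3, the muscle carbonic anhydrase (r = 0.97, rho = 0.94), Cpt1b, which passes fatty acids into mitochondria (r = 0.95, rho = 0.77), and Timp3, a metalloproteinase inhibitor (r = 0.94, rho = 0.60). Arnt was nearest to Car3 (r = 0.97, rho = 1.00), the muscle transcription factor Mef2c (r = 0.97, rho = 0.83) and the matrix protein Thbs1 (r = 0.95, rho = 0.66). Car3 had relative intensities of 10.1, 8.57, 13.0, 11.3, 7.14 and 4.85 on replicates 1 to 6, which put the samples in the same order as Arnt did. Without replicates 1 and 6, r with Car3 was 0.92 for Mb and 0.97 for Arnt. For Mb it was then 0.95 with Cpt1b and 0.83 with Timp3, and for Arnt 0.93 with Mef2c and 0.69 with Thbs1.

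Cited2 was nearest to the fast myosins Myh2 (r = 0.98, rho = 0.77) and Myh1 (r = 0.97, rho = 0.94) and to the topoisomerase Top3b (r = 0.98, rho = 1.00). Hmox1 was nearest to the myogenic factor Myod1 (r = 0.93, rho = 0.75), Top3b (r = 0.93, rho = 0.90) and the lysosomal protease Ctsh (r = 0.93, rho = 0.81). Without replicates 1 and 6, r with Cited2 was 0.91 for Myh2, 0.98 for Myh1 and 0.86 for Top3b. With Hmox1 it was then 0.94 for Myod1, 0.68 for Top3b and 0.78 for Ctsh. Top3b was at 1.36 times the noise bound on replicate 6. Myod1 had relative intensities of 3.35 and 4.74 on replicates 1 and 2 and between 0.424 and 1.19 on the others, so its high samples were those of Hmox1.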

How the data were processed

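Per the labels, total RNA of 6 soleus samples was isolated from cryosections and put on expression arrays. The authors deposited 1 linear intensity per probe and array; array type, background method, normalization and build are not given in the sources used here, and values below 0 mean that some background had been subtracted. The platform annotation named the probes (205 of 223 with 1 symbol, 18 with none); of genes with several probes the brightest was used. Values at or under the array's noise bound were set to it, log2 was taken and the median of the 175 probes above 0 on all arrays subtracted, with no pseudocount. The correlation test was checked on simulated data. Settings varied were the scaling, probe filter, floor, pseudocount, Spearman's rho, a linear scale and left-out replicates. Genes named are the members, the measured genes of the lists, and, for each member above the bound on at least 5 arrays, the 3 most like it among genes above the bound on all 6. Members and lists were chosen with earlier results of these data known. Analyses used Python 3.11.15, numpy 2.4.6, pandas 2.3.3 and scipy 1.17.1.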

Additional observations from a re-analysis of the deposited data

Results flagged for a closer look

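Each set of 6 values was checked for a highest or lowest sample whose distance from its neighbour, as a share of the set's range, was above Dixon's critical value. In deposited units this held for 4 of 5 members, each with replicate 1 highest: the gap was 0.786 of the range for Mb, 0.654 for Arnt, 0.903 for Cited2 and 0.856 for Hmox1. It also held for 120 of the 175 probes above 0 on all arrays, 115 of them highest on replicate 1. On the centred log2 scale it held for 2 of 50 genes and 0 members: Ucp3 was low on replicate 5 (0.656) and Thbs1 on replicate 6 (0.662). Chance flags about 1 in 20 such sets.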

How the results depend on the processing

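The fold between the highest and the lowest array depended on the scaling. With no scaling it was 14.5 for Mb, 27.6 for Arnt, 33.8 for Cited2 and 65.6 for Hmox1, and with 28S as the scale 6.80, 13.0, 15.9 and 30.9. After scaling to the fibre markers it was 1.49, 2.96, 2.09 and 4.10, after scaling to summed intensity 1.51, 3.14, 2.94 and 4.90, and after quantile normalization 1.31 for Mb. Leaving out 1 replicate gave 1.62 to 2.36 for Mb, 2.34 to 6.56 for Arnt, 2.75 to 5.17 for Cited2, 4.57 to 10.0 for Hmox1 and 5.77 to 8.03 for Nos2. The highest Mb value lay in replicate 4, but in replicate 1 with 28S and in deposited units, in replicate 2 after quantile normalization, in replicate 3 with the 75th percentile and in replicate 5 after scaling to the fibre markers. The lowest Mb value moved to replicate 3 (quantile normalization), 5 (summed intensity) and 1 (fibre markers). The highest Arnt value moved to replicate 1 in deposited units and with 28S, the lowest Cited2 value to replicate 5 and the highest Nos2 value to replicate 6 with summed intensity, and the lowest Hmox1 value to replicate 3 with the fibre markers. Member pairs with an unadjusted p under 0.05 numbered 5 in deposited units and with 28S, against 44.4% and 38.8% of all pairs there, and 1 with quantile normalization, summed intensity or the fibre markers, against 13.2%, 14.3% and 16.1%. After adjustment 2 member pairs passed with 28S, where 11.6% of all pairs did, and 0 under every other setting. Leaving out 1 replicate gave 1 to 2, and leaving out replicates 1 and 6 gave 0, where 4 arrays allow no exact permutation p below 0.0417. The sign of r turned for Mb with Arnt (-0.21, quantile normalization), Mb with Hmox1 (-0.051, summed intensity; -0.23, fibre markers; -0.028, without replicates 1 and 6), Mb with Cited2 (-0.41, fibre markers) and Arnt with Hmox1 (-0.11 to 0.74 over left-out replicates, lowest without replicate 6, and -0.11 without replicates 1 and 6). Apart from the samples left out, the cause was not tested. Summed intensity, fibre markers and leaving out replicates 1 and 6 were chosen after seeing the data. No paired analysis was possible because the labels give 1 group. Signal over background limits Nos2 to lower bounds and leaves Arnt on replicate 6 at 2.18 times the noise bound.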
